A study of Mus musculus with 9 samples.

Results

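Stefins and cystatins are protein inhibitors of papain-like cysteine proteases, the cathepsins that digest proteins in lysosomes and granules. Stefins (type 1 cystatins) are small proteins without a signal peptide that act mainly inside the cell, and mice carry a cluster of stefin A genes beside the single widely expressed stefin B gene, Cstb. Type 2 cystatins carry a signal peptide, and include cystatin C (Cst3), a secreted inhibitor made by most tissues, and cystatin F (Cst7), a hematopoietic inhibitor that reaches lysosomes and there acts on cathepsins such as cathepsin C. Levels of the genes for 6 of these inhibitors were read in FDCPmix cells, mouse progenitors of the blood lineages that can be kept undifferentiated in culture. The 6 genes are Stfa2, Stfa3 and Stfa2l1 of the stefin A cluster, Cstb, Cst3 and Cst7, and their probes are all those on the array whose accession RefSeq assigns to these genes. They were chosen with the changes measured on these same arrays known, so their differences between groups, with the errors and calls of the fit over all probes, are a description and no p is given for them. Of the 16535 named genes with a probe, these were 5, since no probe on the array matched Stfa2. The 5 genes had 6 probes (Cstb had 2), and all 6 were well above background on all 9 arrays.

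The cells were grown in Fischer's medium under self-renewal conditions and transduced with Lentilox lentivirus, which carries a GFP marker. The virus held shRNA (a hairpin RNA that leads to breakdown of the transcript it matches) against Gata2 (Gata2 KD), shRNA against Pu.1 (Pu.1 KD) or no shRNA (empty vector, EV), so that all groups had been infected and sorted alike. Viable GFP-positive cells were isolated 5 days later, and 150 ng of total RNA from each sample was hybridized to 1 single-color Agilent array. Each group had 3 arrays, and each of 3 slides held 1 array of each group. The number of shRNA sequences is not stated in the labels. The triplicates were separate samples at transduction, but whether they came from separate starting cultures is not stated, so errors and p-values measure the spread between these samples. Levels are given as log2 signal relative to the 75th percentile of the array, so that 0 is the signal at that percentile. On this scale levels compare groups for 1 probe, and not one probe with another.

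Between 80.4% and 89.6% of spots on an array were well above background, and no spot was saturated. Gata2, the target of the first knockdown, was at 4.80 ± 0.27 in EV (SD, n = 3 in each group here and below), 3.19 ± 0.36 in Gata2 KD and 4.65 ± 0.19 in Pu.1 KD. Spi1, which encodes PU.1, was at -1.86 ± 0.21 in EV, -0.47 ± 0.17 in Gata2 KD and -3.59 ± 0.06 in Pu.1 KD. Spi1 therefore differed from EV in both knockdowns, in opposite directions. All 6 markers of the progenitor line (Kit, Cd34, Ptprc, Csf2rb, Il3ra and Myb) were well above background on all 9 arrays. Their summed level, in units of the array's 75th percentile, was 51.7 to 63 in EV, 79.6 to 92.8 in Gata2 KD and 43.8 to 49.6 in Pu.1 KD. Such a sum adds levels over probes, so that the brightest probes weigh most in it, here and below. Of the 6, Cd34 and Kit rose in Gata2 KD, and in Pu.1 KD Kit rose and Cd34 fell.

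The stretches before the transcription start of 4 of the genes are shown because these genes gave the largest changes or lie in the stefin A cluster, and because the knockdowns targeted factors that bind DNA. RefSeq promoters were found for 5 of the 6 genes (Cstb had no entry). Each line gives the 250 bases before the start, 5′ to 3′ in the direction of the gene, in the build GRCm38.p6. Capitals mark matches on either strand to GGAAGT, the core of the sequence that PU.1 and other ETS factors bind (ACTTCC when read on the opposite strand), or to AGATAA, the core bound by GATA factors. Matches of the 2 motifs did not overlap in these stretches.
Stfa2l1, chr16:36156561-36156810, + strand: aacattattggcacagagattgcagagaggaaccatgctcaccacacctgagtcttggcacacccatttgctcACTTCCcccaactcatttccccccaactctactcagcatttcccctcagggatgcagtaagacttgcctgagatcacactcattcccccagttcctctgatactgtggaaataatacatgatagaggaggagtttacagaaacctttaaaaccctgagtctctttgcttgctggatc
Stfa2, chr16:36408364-36408613, - strand: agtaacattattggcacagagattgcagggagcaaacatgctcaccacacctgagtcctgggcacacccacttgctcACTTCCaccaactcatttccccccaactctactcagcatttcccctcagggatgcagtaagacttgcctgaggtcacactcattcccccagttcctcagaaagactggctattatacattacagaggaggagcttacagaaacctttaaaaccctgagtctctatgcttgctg
Stfa3, chr16:36455393-36455642, - strand: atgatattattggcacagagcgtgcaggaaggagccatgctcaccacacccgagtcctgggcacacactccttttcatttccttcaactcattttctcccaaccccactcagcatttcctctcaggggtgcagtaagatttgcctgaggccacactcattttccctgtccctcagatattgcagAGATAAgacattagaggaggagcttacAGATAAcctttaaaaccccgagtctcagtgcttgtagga
Cst7, chr2:150570165-150570414, + strand: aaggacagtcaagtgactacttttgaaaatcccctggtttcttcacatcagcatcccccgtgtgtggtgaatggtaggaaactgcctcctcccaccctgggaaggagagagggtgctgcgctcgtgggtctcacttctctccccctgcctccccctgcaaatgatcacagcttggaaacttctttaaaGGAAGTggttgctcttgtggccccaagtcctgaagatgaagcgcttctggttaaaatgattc

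GGAAGT was found before Stfa2l1 (177 bases before the start, opposite strand), Stfa2 (173 bases, opposite strand) and Cst7 (62 bases, same strand). AGATAA was found only before Stfa3 among these genes, at 66 and 39 bases before the start. The Cst3 promoter held neither. Of 32851 promoters of the same length, 19.7% held GGAAGT and 9.99% held AGATAA on either strand, so that single matches are common and these are matches of letters and not measured binding sites. The upstream stretches of Stfa2 and Stfa2l1 were identical at 90.8% of aligned bases, and those of Stfa3 at 81.2% with Stfa2 and 82.4% with Stfa2l1. In the same alignment Cst7 and Cst3, which are not stefins, shared 50.4%. High identity was not a trait of all stefins, since Csta1 and Csta2 shared 47.6% to 53.2% with Stfa2, Stfa2l1 and Stfa3. Of the promoters of other stefin genes on chromosome 16 (8 promoters, 1 gene having 2 starts), 1 held GGAAGT and 4 held AGATAA. The genes with a match (Csta3, Cstdc3, Cstdc5 and Stfa1) had no tested probe. Csta1 and Csta2 held neither motif, and Cstdc6 had no promoter entry.

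Stfa3 was the gene with the largest difference between Gata2 KD and EV among the 5. Its level was 0.17, 1.00 and 0.06 on the 3 EV arrays, 4.43, 3.62 and 3.44 in Gata2 KD, and -1.51, -0.75 and -1.61 in Pu.1 KD. No 2 of the 3 groups overlapped, and the order was Gata2 KD, EV, Pu.1 KD. The log2 change against EV was 3.42 ± 0.37 (SE) in Gata2 KD, or 10.7-fold higher, and -1.70 ± 0.37 in Pu.1 KD, or 3.25-fold lower. Gata2 KD and Pu.1 KD thus lay 5.12 ± 0.37 apart, a 34.8-fold difference.

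Stfa2l1, a stefin A gene close to Stfa2 in sequence, had the same order of groups. Its level was 0.70, 1.15 and 0.62 in EV, 4.39, 3.65 and 3.49 in Gata2 KD, and -1.94, -0.93 and -2.04 in Pu.1 KD, again without overlap. The log2 change was 3.02 ± 0.35 in Gata2 KD (8.1-fold higher) and -2.46 ± 0.35 in Pu.1 KD (5.5-fold lower), and the knockdowns differed by 5.48 ± 0.35 (44.5-fold). Stefin A genes are near copies of each other, and whether the Stfa3 and Stfa2l1 probes share signal with each other or with Stfa2 was not tested, as the probe sequences were not used here.

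Cst3 was higher in Gata2 KD by a smaller amount. The EV arrays lay close together at 4.75, 4.72 and 4.75. The Gata2 KD arrays read 5.96, 5.97 and 5.69 and the Pu.1 KD arrays 4.24, 4.35 and 4.11, so that all 3 groups were apart. The log2 change was 1.14 ± 0.14 in Gata2 KD (2.2-fold higher) and -0.50 ± 0.14 in Pu.1 KD (1.42-fold lower).

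Cstb had the smallest difference from EV in Gata2 KD, with the same order of groups. Its brighter probe read 3.14, 3.07 and 3.21 in EV, 3.58, 3.48 and 3.54 in Gata2 KD, and 2.62, 2.68 and 2.88 in Pu.1 KD. The groups did not overlap, and the log2 changes were 0.40 ± 0.13 in Gata2 KD and -0.41 ± 0.13 in Pu.1 KD. The second probe was dimmer, at 0.57 ± 0.18 in EV, 1.00 ± 0.19 in Gata2 KD and 0.04 ± 0.16 in Pu.1 KD (SD). Its changes of 0.43 ± 0.16 and -0.53 ± 0.16 (SE) had the same signs and nearly the same sizes.

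Cst7 ran the other way. Its level was 3.87, 3.49 and 3.95 in EV, 2.26, 2.50 and 2.29 in Gata2 KD, and 3.87, 3.73 and 4.02 in Pu.1 KD. The Gata2 KD arrays lay below all others, and the log2 change against EV was -1.42 ± 0.17, or 2.68-fold lower. EV and Pu.1 KD overlapped, and their difference of 0.10 ± 0.17 was less than the SD of the EV arrays (0.25). This difference changed sign, to -0.043, when EV replicate 2 was left out.

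**Figure D1:**
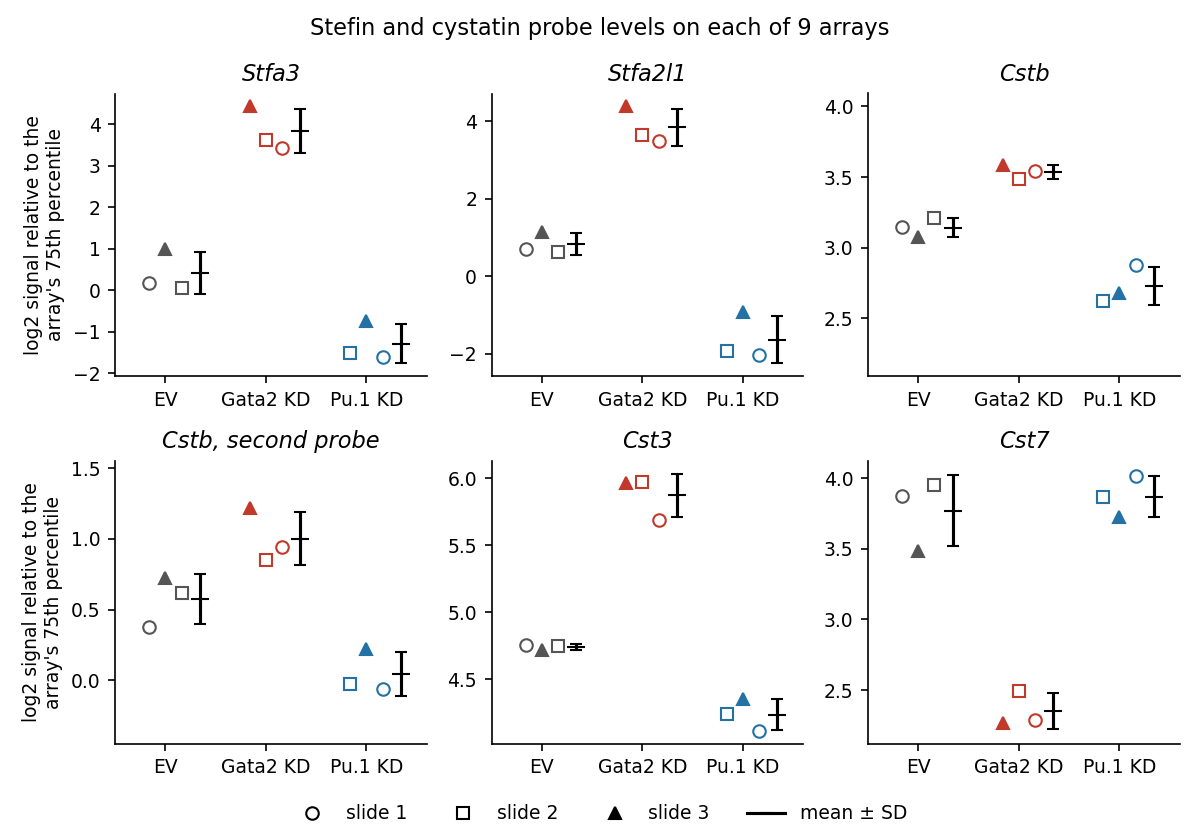
Level of each stefin and cystatin probe on each of 9 arrays, as log2 signal relative to the array's 75th percentile, by group, each panel with its own axis. Symbols give the slide and the black bars the group mean ± SD (n = 3). Stfa3, Stfa2l1, Cstb and Cst3 lie highest in Gata2 KD and lowest in Pu.1 KD, Cst7 lies lowest in Gata2 KD, and the slide 3 array (filled triangle) is the highest of each group for Stfa3 and Stfa2l1.

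Counted by the threshold used for all probes (adjusted p under 0.05 in limma), 3 of the 5 genes were called higher in Gata2 KD than in EV (Stfa3, Stfa2l1 and Cst3) and 1 lower (Cst7). The call rate over all 36585 tested probes was 2.96% higher and 2.24% lower. In Pu.1 KD against EV, Stfa2l1 was called lower and no other gene was called, where 1.27% of all probes were called higher and 1.42% lower. In Gata2 KD against Pu.1 KD all 5 were called, Cst7 lower and the other 4 higher, where 4.86% of all probes were called higher and 4.77% lower. The groups did not overlap for 5 of 5 genes in Gata2 KD against EV (18.6% of all probes), for 4 of 5 in Pu.1 KD against EV (17.3%) and for 5 of 5 between the knockdowns (25.8%). Because the genes were selected on these contrasts, nothing is read from these counts. Both comparisons against EV use the same 3 EV arrays. In bulk RNA, fewer cells that express a gene and less of its RNA per cell cannot be told apart.

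The call of Stfa2l1 in Pu.1 KD depended on single arrays. It was lost without Pu.1 KD replicate 1, when the log2 change was -2.30, and without Pu.1 KD replicate 3, when it was -2.26. Stfa3 was not called in Pu.1 KD, where its log2 change was -1.70, but was called lower in 7 of 20 alternatives. Among these were the slide block and the fit without Gata2 KD replicate 1.

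For Stfa3 and Stfa2l1 the highest array of every group was the one on slide 3, and much of the spread between replicates was a shift shared by the 3 arrays of that slide. Within slides, the Gata2 KD array exceeded the EV array by 3.26 to 3.56 for Stfa3, and the Pu.1 KD array fell short of it, with differences from -1.79 to -1.57. With the slide as a block the SE of these changes was 0.10, against 0.37 without it. For Stfa2l1 the differences within slides were 2.79 to 3.24 in Gata2 KD and -2.73 to -2.08 in Pu.1 KD, and the SE was 0.14 with the block and 0.35 without it.

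For the other genes the slide block changed the SE less. Within slides, Cst3 in Gata2 KD was higher than in EV by 0.94 to 1.25 and Cstb by 0.27 to 0.51, and the SE was 0.10 for each with the block, against 0.14 and 0.13 without it. Cst7 was lower in Gata2 KD on all 3 slides, with differences from -1.59 to -1.22, and in Pu.1 KD was higher on 2 slides and lower on 1, with an SE of 0.12 with the block and 0.17 without it. The slide 3 arrays had 80.4% to 84.0% of spots well above background and the arrays of the other slides 85.6% to 89.6%, and the part of this in the shift was not tested.

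**Figure D2:**
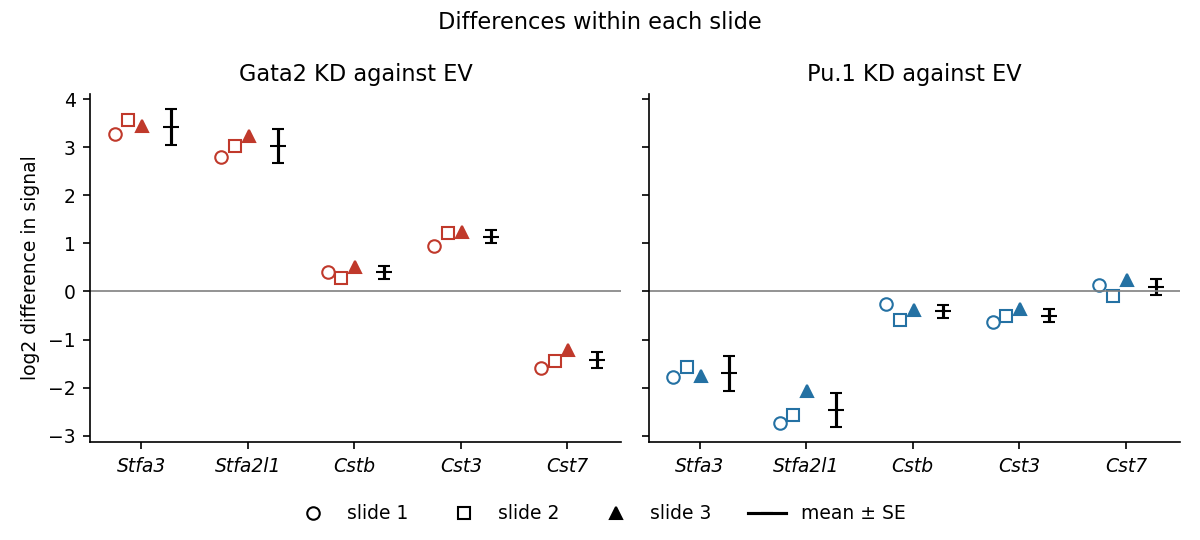
Log2 difference in signal between the knockdown array and the EV array of the same slide, for each gene (brighter probe of Cstb), in Gata2 KD (left) and Pu.1 KD (right). Open circles, open squares and filled triangles are slides 1, 2 and 3, and the black bars give the log2 change over all arrays ± SE. For Stfa3 in Gata2 KD the 3 slides lie between 3.26 and 3.56, where the SE over all arrays is 0.37.

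Stfa3, Stfa2l1 and Stfa2 lie among 11 stefin genes that follow each other on chromosome 16 in the RefSeq order, and 4 of the other 8 had a probe. All 3 of those that passed the filter on dim probes (Csta1, Csta2 and Cstdc6) were higher in Gata2 KD and lower in Pu.1 KD than in EV, with median log2 changes of 2.09 and -2.26, beside medians over all tested probes of -0.09 and -0.04. Csta1 was at 5.16 ± 0.08 in EV, 7.24 ± 0.30 in Gata2 KD and 2.89 ± 0.22 in Pu.1 KD (SD). Its log2 changes were 2.09 ± 0.19 (SE, adjusted p = 0.000374) and -2.26 ± 0.19 (adjusted p = 0.00138). Cstdc6 was at 4.70 ± 0.10, 6.66 ± 0.19 and 2.37 ± 0.21 in the same order, and its changes were 1.96 ± 0.16 (adjusted p = 0.00025) and -2.33 ± 0.16 (adjusted p = 0.000934). A second Cstdc6 probe gave 2.32 and -2.37. The gene lists here and below were also chosen with earlier results of these data known. Their adjusted p-values are therefore a description too.

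Csta2 had a smaller fall. It was at 2.41 ± 0.12 in EV, 4.72 ± 0.24 in Gata2 KD and 1.54 ± 0.08 in Pu.1 KD. Its rise in Gata2 KD was 2.30 ± 0.16 (adjusted p = 7.86e-05), and its fall in Pu.1 KD was -0.87 ± 0.16 (adjusted p = 0.0255). The call of the fall was lost in 10 of 20 alternatives, among them the fits without any 1 of the EV or Pu.1 KD arrays and without Gata2 KD replicate 2, while the log2 change stayed between -0.94 and -0.81. The calls of Csta1 and Cstdc6 were lost in none of the 20. Cstdc3 and a second Csta1 probe were too dim to be tested, and Stfa1, Cstdc4, Cstdc5 and Csta3 had no matched probe. Sharing of signal between these copies was not tested. Cstdc1 and Cstdc2, listed with the stefins but located on chromosome 2, were dim and not called, with log2 changes of -0.77 and -0.45 in Gata2 KD and -0.74 and -1.35 in Pu.1 KD.

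Of the 5 nearest named genes on each side, 9 were tested and 0 were called in either knockdown by limma (4 of 9 in Gata2 KD and 2 of 9 in Pu.1 KD at an unadjusted p under 0.05). Their median log2 change was -0.14 in Gata2 KD, with a range from -0.46 for Kpna1, an importin, to 0.53 for Slc15a2, a peptide transporter. In Pu.1 KD the median was -0.10, with a range from -0.82 for Cd86, a costimulatory protein whose probe was dim, to 0.99 for Slc15a2 (adjusted p = 0.0513). Slc15a2 was called higher in both knockdowns with the slide as a block, and in Pu.1 KD in 5 of 20 alternatives. A dimmer Slc15a2 probe gave 0.26 in Gata2 KD and 0.32 in Pu.1 KD and was not called in either. In Gata2 KD Ccdc58 was called lower in 2 of 20 alternatives and Fam162a in 1.

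**Figure D3:**
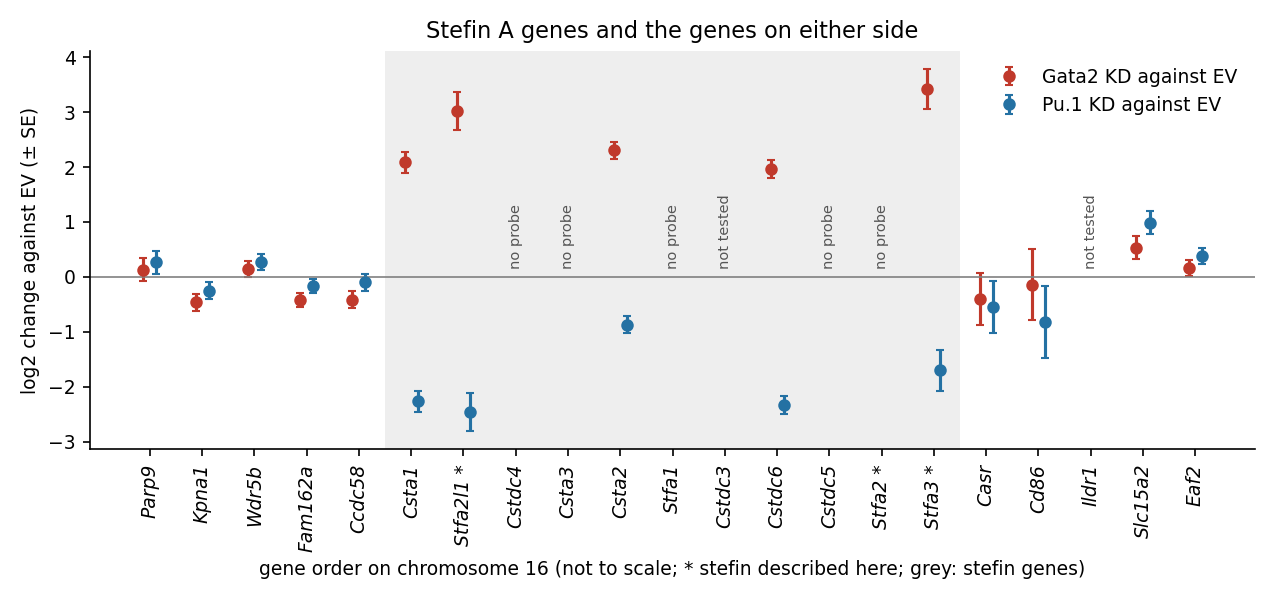
Log2 change against EV ± SE of the stefin genes on chromosome 16 (grey band) and of the 5 nearest named genes on each side, in gene order and not to scale, for Gata2 KD (red) and Pu.1 KD (blue). All 5 stefins with a tested probe lie between 1.96 and 3.42 in Gata2 KD and between -2.46 and -0.87 in Pu.1 KD, and the neighbors lie between -0.46 and 0.53 in Gata2 KD and between -0.82 and 0.99 in Pu.1 KD.

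Other relatives were tested with limma as well. Of 7 other type 2 cystatins, which are mostly genes of the male reproductive tract, 0 were called in either knockdown, and 0 had an unadjusted p under 0.05. The lowest of the 7 in Gata2 KD, at -0.77, was also counted above among the genes listed with the stefins. Of the kininogens and fetuins, liver proteins with cystatin domains, 3 were tested (Ahsg, Fetub and Hrg), with 0 called and 0 at an unadjusted p under 0.05. Their log2 changes ran from -0.26 to 0.03 in Gata2 KD.

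Cysteine proteases of the kinds that cystatins bind changed in part. Of 12 genes (papain-like cathepsins, legumain, and Tinagl1, whose product resembles a cathepsin but is not catalytic), 3 rose in Gata2 KD and none of the 12 fell, with a median log2 change of 0.20. Over all tested probes, 2.96% were called higher there and 2.24% lower. Ctss, the cathepsin of antigen-presenting cells, had the largest rise of the 12. It was at -2.56 ± 0.46 in EV, 3.57 ± 0.16 in Gata2 KD and -2.47 ± 0.22 in Pu.1 KD (SD), a log2 change of 6.13 ± 0.24 in Gata2 KD (SE, adjusted p = 7.49e-06). Ctsh, an aminopeptidase, rose by 4.08 ± 0.19 (adjusted p = 1.41e-05), and Ctsz, a carboxypeptidase, by 1.72 ± 0.19 (adjusted p = 0.00117).

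In Pu.1 KD 1 of the 12 fell and none rose, where 1.42% of all probes were called lower and 1.27% higher. Ctsl, a lysosomal endopeptidase, had a log2 change of -1.43 ± 0.19 (adjusted p = 0.00844). Its call was lost with normexp background correction, when the log2 change was -0.44, and in the fit on only the groups compared. Ctss in Pu.1 KD had a log2 change of 0.09 ± 0.24. Ctsc, the dipeptidyl peptidase that activates granule serine proteases, had log2 changes of 0.22 ± 0.17 in Gata2 KD and -0.74 ± 0.17 in Pu.1 KD (adjusted p = 0.729 and 0.067), and between the knockdowns it differed by 0.96 ± 0.17 (adjusted p = 0.00787). In Pu.1 KD it was called lower in 6 of 20 alternatives, among them the slide block. Ctsb, cathepsin B, had 0.51 ± 0.15 in Gata2 KD (adjusted p = 0.133) and 0.04 ± 0.15 in Pu.1 KD.

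**Figure D4:**
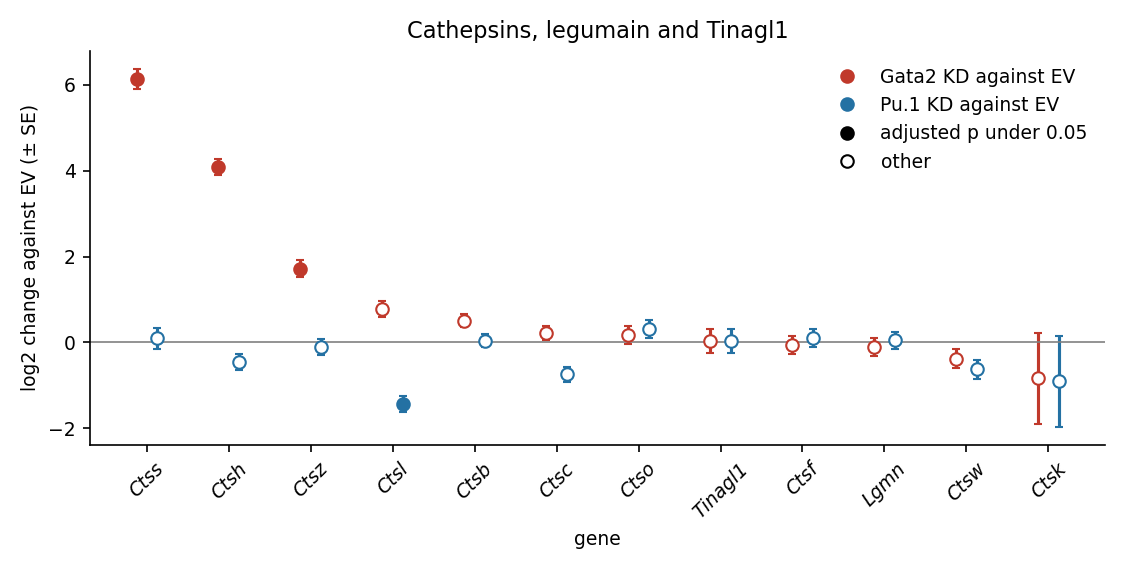
Log2 change against EV ± SE of 12 genes of cathepsins, legumain and the cathepsin-like Tinagl1, ordered by the change in Gata2 KD (red), with Pu.1 KD in blue. Filled points had an adjusted p under 0.05 in limma. Ctss (6.13), Ctsh (4.08) and Ctsz (1.72) were called in Gata2 KD, and Ctsl (-1.43) in Pu.1 KD.

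Among inhibitors of other classes, 22 genes were tested. In Gata2 KD 5 rose (Slpi, Wfdc21, Serpinb2, Serpinb10 and Spint1) and 2 fell (Ctla2a and Serpinb1a), and the median log2 change was -0.01. Over all tested probes, 2.96% were called higher there and 2.24% lower. Wfdc21, a whey acidic protein of myeloid cells, rose by 3.56 ± 0.19 (adjusted p = 2.95e-05), Serpinb10, a serpin of blood cells, by 2.71 ± 0.20 (adjusted p = 0.00014) and Slpi, the secretory leukocyte protease inhibitor, by 1.13 ± 0.16 (adjusted p = 0.00385). Ctla2a, an inhibitor of cathepsin L that resembles a cathepsin propeptide, had a log2 change of -0.72 ± 0.14 (adjusted p = 0.0218), and Serpinb1a, an inhibitor of neutrophil serine proteases, of -0.62 ± 0.14 (adjusted p = 0.0405). The calls of Ctla2a, Serpinb1a, Serpinb2 and Spint1 were each lost in 6 to 13 of 20 alternatives, among them fits without single EV or Gata2 KD arrays and, for Serpinb1a and Spint1, without any 1 of the Pu.1 KD arrays.

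In Pu.1 KD 1 of the 22 rose and 2 fell, where 1.27% of all probes were called higher and 1.42% lower. Cast, which encodes calpastatin, the inhibitor of calpains, rose by 1.07 ± 0.16 (adjusted p = 0.0141), and a second probe gave 0.94. Wfdc21 had a log2 change of -1.11 ± 0.19 (adjusted p = 0.0229) and Serpinf1, a secreted serpin, of -1.61 ± 0.16 (adjusted p = 0.00285), where a dimmer Serpinf1 probe gave -0.41 and was not called. Serpinb2, an intracellular serpin, had a log2 change of 0.80 ± 0.18 (adjusted p = 0.0649) in Pu.1 KD, and its dimmer probe was called higher there, at 1.103 ± 0.14 (adjusted p = 0.00666). The Cast call was lost in 7 and the Wfdc21 call in 9 of 20 alternatives, among them the fit without any 1 of the Pu.1 KD arrays. The Cast call was also lost without EV replicate 2, and the Wfdc21 call without EV replicate 1, EV replicate 3 or Gata2 KD replicate 2.

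Marker lists of the blood lineages differed in how they moved. Over all tested probes, 2.96% were called higher and 2.24% lower in Gata2 KD, and 1.27% higher and 1.42% lower in Pu.1 KD. Of 11 neutrophil markers 10 rose in Gata2 KD (2.96% of all probes did) and 8 fell in Pu.1 KD (1.42%), and their summed level, in units of the array's 75th percentile, was 241 to 270.4 in EV, 1132 to 1349 in Gata2 KD and 106 to 125 in Pu.1 KD. Of 6 monocyte and macrophage markers with a probe, 5 rose in Gata2 KD and 2 fell in Pu.1 KD, and the sum was 4.15 to 4.43 in EV, 23.7 to 27.2 in Gata2 KD and 2.03 to 2.36 in Pu.1 KD. One of them, Mrc1, was not well above background on any EV or Pu.1 KD array. Of 6 mast cell and basophil markers 4 fell in Gata2 KD, and in Pu.1 KD 1 rose (Cma1) and 1 fell (Fcer1a). Their sum was 99.6 to 116 in EV, 17.1 to 18.7 in Gata2 KD and 65 to 73.2 in Pu.1 KD. Of 5 erythroid markers with a probe 2 fell in Gata2 KD and 2 rose in Pu.1 KD (Klf1 and Epor in each). The sum was 9.15 to 10.2 in EV, 6.99 to 11.1 in Gata2 KD and 15.3 to 17.7 in Pu.1 KD. Its brightest probe, that of Hba-a1, weighed most in it and was not called in Pu.1 KD (0.75 ± 0.23, SE, adjusted p = 0.163 in limma). Of 5 megakaryocyte markers 1 rose in Gata2 KD and 2 in Pu.1 KD, and the sum was 57.7 to 76 in EV, 61.1 to 91.7 in Gata2 KD and 146 to 171 in Pu.1 KD. Of 6 lymphoid markers 0 were called in either knockdown by limma, and 0 had an unadjusted p under 0.05. The part of the marker changes in the stefin and cystatin values was not tested.

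The genes whose levels ran most like those of each inhibitor over the 9 arrays were found by the root mean square (RMS) difference of log2 levels, after each probe was centered on its own mean, among 15487 genes other than these 5. Stfa2l1 and Stfa3 differed from each other by 0.34. Of the genes searched, those nearest to Stfa3 were S100a8 (0.35), Csf3r (0.41) and Lyz1 (0.42), which encode a calprotectin subunit, the G-CSF receptor and a lysozyme. Those nearest to Stfa2l1 were Anxa3 (0.33), S100a9 (0.34) and Mpo (0.39). For Cst3 they were Ethe1 (0.09), Cyba (0.10) and N4bp3 (0.11), where Cyba encodes a subunit of the phagocyte oxidase. For Cstb they were Mical1 (0.04), Tmed3 (0.06) and Ralb (0.07). For Cst7 they were Pga5 (0.15), Mpzl1 (0.17) and Prdx4 (0.17), of which Prdx4 encodes a peroxiredoxin of the secretory pathway. These differences depend on how much a gene varies, since a gene with a small range such as Cstb (SD over the 9 arrays 0.36) has close neighbors more readily than Stfa3 (SD 2.30). Cst7 was 2.85 from Stfa3 and 2.93 from Stfa2l1, the largest distances among the 5 genes.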

How the data were processed

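Total RNA of 9 samples (3 per group) was measured on Agilent single-color arrays with a design annotated to mm8. For each array the authors deposited the intensity output of Agilent Feature Extraction 10.1.1.1, of which the background-subtracted processed signal was used. They also deposited a table of log2 values, whose processing is not given in full in the sources used here. These followed the log2 median signal of each array (r of 0.997 or more) more closely than the log2 processed signal (r of 0.959 to 0.98). They thus appear to hold no background subtraction, though this is not stated, and were used as an alternative. Dim probes depend most on that step.

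The log2 processed signal was averaged over the spots of a probe, with outlier-flagged spots left out, and the 75th percentile of the array was subtracted. Probes well above background on at least 3 of 9 arrays, with 2 or more values in each group, were tested (36585 of 41174). Probes were named by matching their accessions to RefSeq (GRCm38.p6, 23374 probes named), and a gene was read from its brightest tested probe. Groups and replicate numbers came from the sample titles and slides from the array barcodes. The 3 comparisons were made with limma 3.58.1 in R 4.3.3 (group means over all 9 arrays, eBayes, two-sided, Benjamini-Hochberg adjustment over all tested probes, threshold 0.05). Array number limits the precision. Promoters were aligned globally with Biopython 1.88 (match 1, mismatch -1, gap opening -3, gap extension -0.5), and identity was taken over 250 bases.

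The 6 genes and all gene lists were chosen with earlier results of these data known, so the calls and adjusted p-values of the lists are a description as well. The text names, by rule, all members, the targets and the 3 genes most alike to each member, and gives counts, with examples, for the lists of relatives, proteases, inhibitors, neighbors and markers. One listed inhibitor is not reported here. Alternatives were a replicate block, a slide block, normexp (offset 50, on the median signal, as no mean signal column was used), quantile normalization, median scaling, 2 other filters, outlier spots kept, eBayes with a trend and robust fitting, use of the authors' log2 table, fits on the compared groups alone and each array left out. The fitting was tested on simulated data.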

Additional observations from a re-analysis of the deposited data

How the results depend on the processing

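The blocks, the 2 other filters, the trend and robust settings and the fits on the compared groups alone left the log2 changes of these genes unchanged. Leaving out an array of the group not compared did so too. In these fits only the errors and calls could move, so the direction could not change. Of all 303 recomputed log2 changes of the 5 genes, with these included, 1 changed direction. This was the log2 change of Cst7 in Pu.1 KD, which ran from -0.043 (without EV replicate 2) to 0.19 (without EV replicate 3) with 1 array left out. The 4 calls in Gata2 KD against EV and the 5 between the knockdowns were made under all 20 alternatives, and Cstb was called in Gata2 KD too with trend and robust settings and with the deposited log2 values. These genes were selected on these contrasts and the alternatives use the same arrays, so the repeated calls add no support. In Pu.1 KD against EV, where 1 of the 5 was called, the count was 2 with the slide block, quantile normalization or a filter on all 9 arrays, 3 with normexp or the deposited log2 values, 4 with trend and robust settings, and 0 to 2 with 1 array left out. The added calls were Stfa3, Cst3 and Cstb, all lower. Of the relatives, proteases, other inhibitors and neighbors, 7 were called in Pu.1 KD, and this became 11 with the slide block or a filter on all 9 arrays, 12 with the deposited log2 values, 4 with median scaling, 3 with only the groups compared, and 4 to 7 with 1 array left out. In Gata2 KD against EV 13 of them were called, 11 higher and 2 lower. This became 17 with the slide block or the deposited log2 values, and 9 to 11 with 1 array left out. With the replicate block or only the groups compared, 9 were called higher and 0 lower. Between the knockdowns 13 of these other genes were called, and 20 with the slide block or the deposited log2 values. The cause of these shifts was not tested.

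Same-numbered arrays deviated together (r over 0.1) in 4 of 9 pairs, against 8 of 9 pairs of arrays on the same slide. Some same-numbered pairs also shared a slide, so whether the replicate numbers pair the samples cannot be told from these counts. With the replicate block, 4 genes were called in Gata2 KD, 1 in Pu.1 KD and 5 between the knockdowns, as without it. The calls of other genes went from 13 to 9 in Gata2 KD, from 7 to 4 in Pu.1 KD and from 13 to 14 between the knockdowns. Over all probes this block gave 1172 calls in Gata2 KD, 234 in Pu.1 KD and 2368 between the knockdowns. Calls over all probes ran from 1072 (without Gata2 KD replicate 2) to 2886 (slide block) in Gata2 KD, where 1902 were made, from 223 (only the groups compared) to 1875 (slide block) in Pu.1 KD, where 986 were made, and from 2206 (without Gata2 KD replicate 2) to 5168 (slide block) between the knockdowns, where 3524 were made. The Ctsl probe was dim, at -3.61 in EV and -5.04 in Pu.1 KD, though well above background on all 9 arrays. Its change in Pu.1 KD became -0.44 with normexp, and the part of its low signal in this was not tested.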
